A study of Mus musculus with 31 samples.

Results

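A set of 10 genes of the neuronal cytoskeleton and the growth cone were followed on arrays of neonatal mouse brain: Map1a, Map1b, Map2, Mapt, Mapre2, Dcx, Tubb3, Stmn2, Dpysl3 and Gap43. They are 10 of the 19902 gene symbols, leaving out Rik clone names, that have a probe on the array. They were chosen by name, and the value of a gene is that of its brightest probe. All 10 brightest probes were well above background on each of the 31 arrays and passed the filter on dim probes in every group.

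Each array compared RNA pools from 6 forebrain hemispheres of Naval Medical Research Institute (NMRI) mice injected at 5 days of age, with 1 pool labelled with Cy5 and the other with Cy3. In the MgSO4 groups, mice given 600 mg/kg MgSO4 (Cy5) were compared with naive control mice (Cy3, given PBS by the labels and untouched by the methods) on 7 arrays at 6 h and on 4 arrays each at 3, 12 and 24 h. In the HI groups, mice with permanent ligature of the right carotid followed by hypoxia (hypoxia-ischemia, HI, Cy5) were compared with naive mice (Cy3) after 3 h and 12 h, on 3 arrays each. One label names MgSO4 for these HI pools, whereas their titles, their source and the methods do not, and they were read as HI without MgSO4. In the MgHI groups, also 3 arrays at 3 h and 3 at 12 h, the labels and methods place mice given MgSO4 before HI in Cy5, against mice with HI alone by the methods or MgSO4-treated naive mice by the titles. Since the study's figures place MgHI in Cy3, values of these arrays are given by channel. The labels call the arrays of a group biological replicates, the methods give 3 samples per time, and pooling hides the spread between animals. Without dye swaps, bias of a dye at a probe could not be separated from its ratio.

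Microtubules are hollow polymers of alpha- and beta-tubulin that carry transport along axons and dendrites. Structural microtubule-associated proteins (MAPs) bind along the polymer and stabilise it, end-binding proteins ride on its growing tips, and stathmins bind free tubulin dimers and favour disassembly. In the first days after birth cortical neurons are still extending axons, and growth cones at the axon tips hold large amounts of Gap43, Stmn2 and collapsin response mediator proteins such as Dpysl3. Dcx marks young migrating neurons. In bulk tissue, fewer cells of a type and less RNA per cell cannot be told apart.

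In build GRCm38.p6 Map1b lies at chr13:99421464-99516602, Mapt at chr11:104229409-104332090, Dcx at chrX:143855842-143933396, Stmn2 at chr3:8509527-8561604 and Gap43 at chr16:42248552-42340651. Promoter sequence was used for 5 of the 10 genes (RefSeq, build GRCm38.p6, 250 bases before and 50 after a transcript start, written 5′ to 3′ on the gene's strand). Those of Map1b and Dcx, whose ratios spread widely over the arrays, are shown beside those of Tubb3 and Map2, whose ratios stayed in a narrow band. Capitals mark matches on either strand to the TATA box, searched as TATAAA. They also mark the CCAAT box. The GC box was searched as GGGCGG. The cyclic AMP response element and an E-box were searched too (TGACGTCA and then CACGTG), with CAGCTG as a second form of E-box, and none of these 3 was found in any of the windows.
Map1b, chr13:99516553-99516852, minus strand: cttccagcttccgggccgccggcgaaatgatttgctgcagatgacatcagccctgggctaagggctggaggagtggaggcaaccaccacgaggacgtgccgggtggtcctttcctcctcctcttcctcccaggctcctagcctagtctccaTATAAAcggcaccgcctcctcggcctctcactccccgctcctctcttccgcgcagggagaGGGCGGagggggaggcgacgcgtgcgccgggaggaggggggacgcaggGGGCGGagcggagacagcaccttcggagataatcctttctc
Dcx, chrX:143933170-143933469, minus strand: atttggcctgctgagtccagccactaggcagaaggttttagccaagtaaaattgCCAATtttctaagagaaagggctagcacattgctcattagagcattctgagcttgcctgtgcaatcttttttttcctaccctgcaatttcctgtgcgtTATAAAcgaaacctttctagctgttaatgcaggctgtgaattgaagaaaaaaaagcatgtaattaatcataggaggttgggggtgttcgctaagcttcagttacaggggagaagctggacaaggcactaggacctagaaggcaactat
Tubb3, chr8:123411303-123411602, plus strand: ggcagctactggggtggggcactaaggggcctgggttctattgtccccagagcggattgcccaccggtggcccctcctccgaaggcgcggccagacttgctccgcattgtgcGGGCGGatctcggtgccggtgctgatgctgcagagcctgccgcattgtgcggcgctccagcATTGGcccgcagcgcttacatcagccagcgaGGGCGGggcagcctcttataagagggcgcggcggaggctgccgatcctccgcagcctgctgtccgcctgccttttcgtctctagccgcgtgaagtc
Map2, chr1:66175079-66175378, plus strand: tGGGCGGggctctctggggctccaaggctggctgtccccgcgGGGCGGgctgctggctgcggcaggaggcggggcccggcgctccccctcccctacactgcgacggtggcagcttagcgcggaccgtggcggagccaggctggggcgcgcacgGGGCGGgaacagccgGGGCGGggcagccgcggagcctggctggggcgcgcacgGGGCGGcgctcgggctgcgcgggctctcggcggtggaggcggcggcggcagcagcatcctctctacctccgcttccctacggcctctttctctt
TATAAA was found in the windows of Map1b and Dcx, in a second Dcx window (chrX:143933075-143933374) that overlaps the first, and in 13.6% of all 32851 promoters of this length. Counted from the transcript start, it began at -99 in Map1b and at -98 and -193 in the Dcx windows. Forms that differ from TATAAA by a letter were not searched. The Map2 window held 5 matches to GGGCGG, which occurs in 35.7% of all promoters, and that of Dcx held none. The CCAAT box, found in 37.4% of all promoters, was in both windows of Dcx and in that of Tubb3. GC content was 43% in the Dcx window, 65.7% for Map1b, 67.3% for Tubb3 and 77.7% for Map2, against a median of 52.7% over all promoters. The window of Map1a, the third wide gene with a promoter, held no TATAAA, 4 matches to GGGCGG and a CCAAT box, with a GC content of 65.7%. A match of letters is a description only.

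Across the 31 arrays, the log2 ratio of Cy5 to Cy3 spread over very different ranges among these genes. The SD over arrays was 0.93 for Map1b, 0.73 for Dpysl3, 0.72 for Mapt, 0.63 for Dcx, 0.60 for Mapre2 and 0.51 for Map1a. It was 0.33 for Gap43, 0.31 for Tubb3, 0.29 for Stmn2 and 0.20 for Map2. The division into 6 wide and 4 narrow genes was made after these values were seen. The 6 wide genes were all higher in Cy5 on 11 arrays, all lower on 4 and of mixed sign on 16. The closest pair was Mapt and Dpysl3, whose ratios differed by 0.16 (root mean square over arrays), and the farthest was Map1b and Tubb3, at 0.94.

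**Figure D1:**
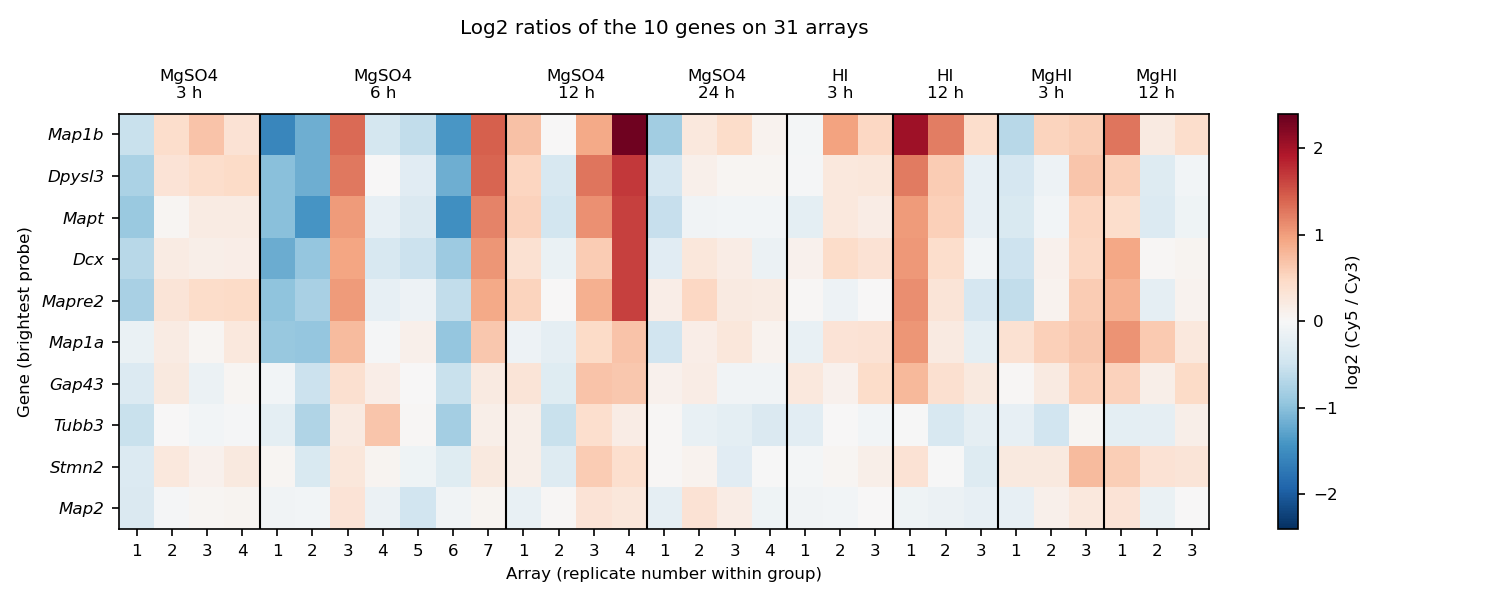
Log2 ratio of Cy5 to Cy3 (colour) of the 10 genes (rows, brightest probe, ordered by their SD over arrays) on 31 arrays (columns, by group and replicate number). The 6 rows from Map1b to Map1a are all red on 11 arrays, all blue on 4 and of mixed sign on 16, and the MgSO4 6 h group holds both the bluest columns (replicates 1, 2 and 6) and columns that are red throughout (replicates 3 and 7).

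After MgSO4 alone, no gene of the set passed the test against control at any time point. Limma called 0 of the 10 genes at each of the 4 times, where 0% (3 h), 0.0283% (6 h), 0% (12 h) and 0.00554% (24 h) of all probes tested were called. At an unadjusted p under 0.05, limma counted 0, 0, 2 and 1 of the 10 genes in the same order, beside 9.03%, 13.2%, 15.7% and 11.1% of all probes. The methods' t-test counted 0, 0, 0 and 1 without adjustment, beside 9.47%, 13.6%, 11.3% and 10.4% of all probes. The median of the 10 means was 0.011, -0.12, 0.47 and -0.0011 in that order, while the median over all probes stayed between -0.011 and 0.014. All 10 means lay below 0 at 6 h over the 7 arrays (adjusted p from 0.718 to 0.948), although 8 of them lay above 0 without slide 3, and all 10 above 0 at 12 h (0.304 to 0.884).

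Among the structural MAPs, Map1b, an axonal MAP expressed early in development, had log2 ratios of -1.57, -1.17, 1.35, -0.43, -0.59, -1.39 and 1.44 on the 7 arrays of 6 h. Replicates 3 and 7 were thus high and the other 5 low, and the mean was -0.34 ± 1.25 (SD, n = 7, adjusted p = 0.745). The second Map1b probe was above 0 on 4 of the 7 arrays, with a mean of 0.12 ± 1.13 (SD, n = 7, adjusted p = 0.912). At 12 h Map1b measured 0.71, 0.0018, 0.91 and 2.33, a mean of 0.99 ± 0.98 (SD, n = 4, adjusted p = 0.306). Its ratios at 3 h were -0.53, 0.43, 0.68 and 0.34, and at 24 h they were -0.84, 0.25, 0.44 and 0.09. At both of these times replicate 1 was the only array below 0. Mapt encodes tau, the axonal MAP, and ranged from -1.47 to 1.19 at 6 h with a median of -0.34. At 12 h its ratios were 0.55, -0.43, 1.09 and 1.64, with replicate 2 alone below 0.

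Map1a, the MAP1 form of mature neurons, ran from -0.93 to 0.76 at 6 h and from -0.22 to 0.68 at 12 h. Map2, the MAP of dendrites and cell bodies, kept within -0.46 and 0.33 at 6 h and within -0.17 and 0.33 at 12 h. Its 6 h mean was -0.066 ± 0.237 (SD, n = 7), with a 95% interval from -0.30 to 0.16, whereas that of Map1b ran from -1.23 to 0.55.

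Of the proteins that bind growing ends or young microtubules, Mapre2 (EB2) measured 0.53, 0.01, 0.85 and 1.64 at 12 h, above 0 on all 4 arrays. Its mean of 0.76 ± 0.68 (SD, n = 4) had an adjusted p of 0.304, the lowest of the set at that time. At 24 h Mapre2 was also above 0 on all 4 arrays (0.16, 0.50, 0.21 and 0.21), with a mean of 0.27 ± 0.16 (SD, n = 4, adjusted p = 0.409). The second Mapre2 probe had means of 0.40 ± 0.49 at 12 h and -0.17 ± 0.38 at 24 h (SD, n = 4). Dcx, doublecortin, ranged from -1.19 to 1.06 at 6 h around a median of -0.52, and its 12 h ratios were 0.36, -0.16, 0.60 and 1.63. The dimmer Dcx probes had 12 h means of 1.03 ± 0.70, above 0 on all 4 arrays, and 0.62 ± 0.64, with 1 array below 0. Their limma adjusted p was 0.304 and 0.315 (SD, n = 4). Tubb3, the neuronal beta-tubulin, had 6 h ratios from -0.82 to 0.67, with replicate 4 at the top rather than replicates 3 and 7. Its 12 h mean was 0.050 ± 0.403 (SD, n = 4).

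Among the genes of the growth cone, Dpysl3 (CRMP4) ran from -1.17 to 1.40 at 6 h and gave 0.51, -0.38, 1.29 and 1.70 at 12 h, with replicate 2 again low. Gap43, a membrane protein of axon tips, stayed between -0.54 and 0.39 at 6 h. Stmn2 (SCG10), the growth cone stathmin, stayed between -0.37 and 0.27. At 12 h the means of these last genes were 0.34 ± 0.46 and 0.21 ± 0.39 (SD, n = 4), within the spread between arrays.

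**Figure D2:**
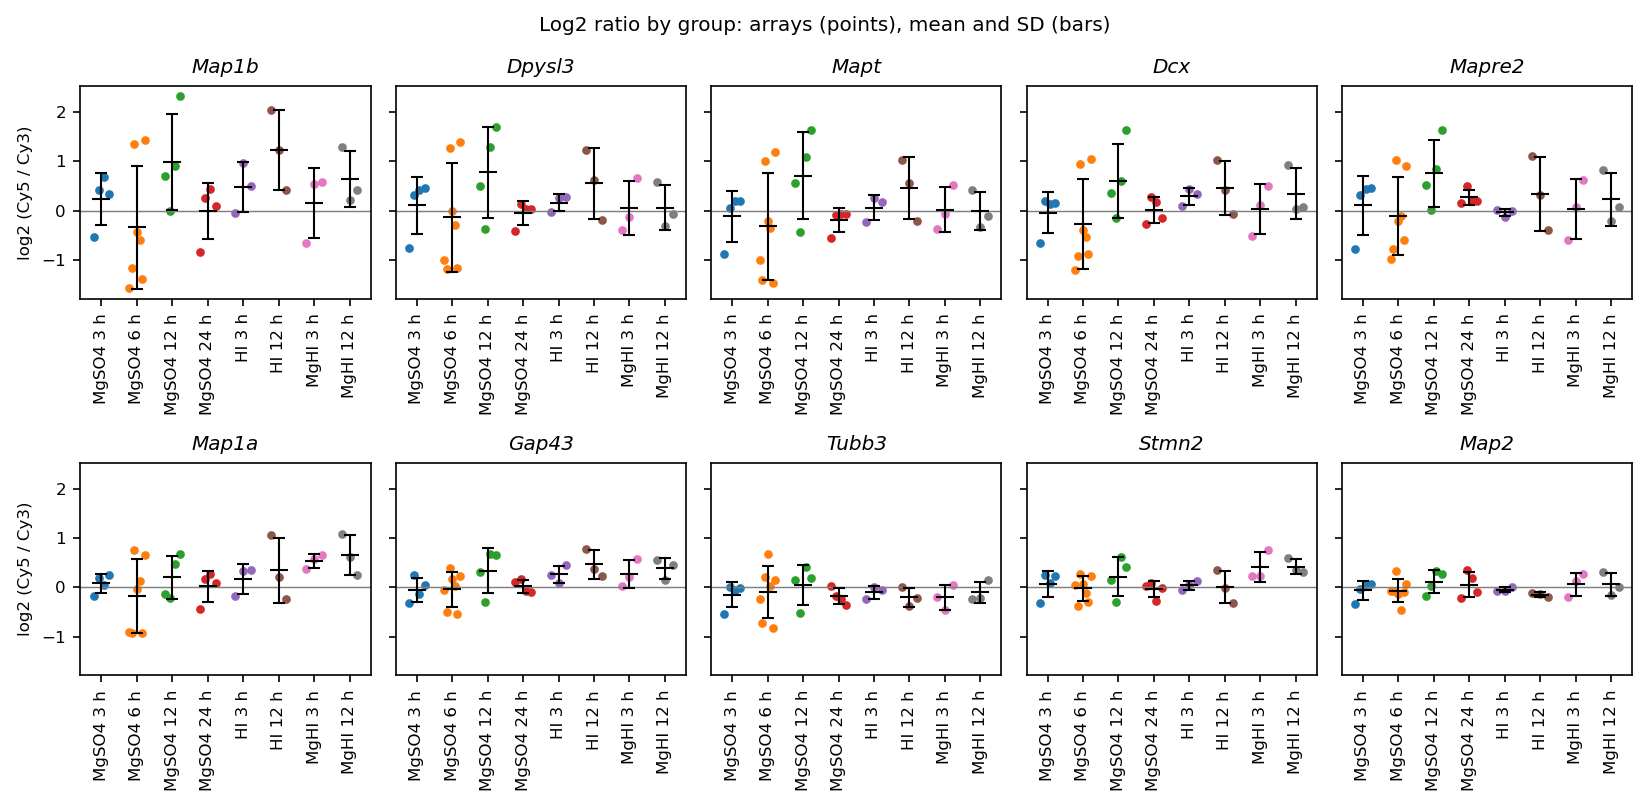
Log2 ratio of Cy5 to Cy3 of each gene (panels) by group: points are arrays, bars the mean and SD over the arrays of a group (n = 3, 4 or 7). Arrays of the MgSO4 6 h group lie on both sides of 0 for Map1b, Dpysl3, Mapt, Dcx, Mapre2 and Map1a, while Map2 and Stmn2 stay within -0.46 and 0.61 in all groups of MgSO4 alone.

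The 6 h arrays differed in direction, and those of slide 4 stood apart from the others. Slides 1 to 4 each held 1 array of 12 h, 1 of 24 h and 1 or 2 of 6 h, and each was scanned on its own day. The median log2 ratio of the 10 genes was 0.85 and 0.78 on replicates 3 and 7 (slide 4), with all 10 genes above 0 on both. It was -0.85 on each of replicates 2 and 6 (slide 3), with all 10 below 0. On slide 2 it was -0.94 and -0.20 (replicates 1 and 5), and on slide 1 it was -0.09 (replicate 4). Over all probes tested, replicates 3 and 7 correlated with the other 6 h arrays at r from -0.42 to -0.014, whereas pairs within either set had r from 0.15 to 0.86. Arrays on the same slide correlated at 0.86 (replicates 2 and 6, slide 3), 0.56 (replicates 3 and 7, slide 4) and 0.22 (replicates 1 and 5, slide 2). Across slides, replicate 1 correlated at 0.59 with each of replicates 2 and 6. The labels and the methods state Cy5 for MgSO4 on all of them, and that direction was kept. Both 6 h arrays of slide 4 had few Cy3 spots well above background (49.9% and 45.2%, against 45.2% to 69.7% over all 31 arrays).

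Without slide 4, a choice made after its values were seen, limma called 5 of the 10 genes lower at 6 h (Map1b, Dcx, Mapt, Mapre2 and Dpysl3), where 17.2% of 18174 probes tested were called. Their mean log2 ratios over the remaining 5 arrays were -1.03 for Map1b, -0.88 for Mapt, -0.78 for Dcx, -0.72 for Dpysl3 and -0.53 for Mapre2, with adjusted p from 0.0161 to 0.0406. This fit took the 5 arrays as independent, although some of them shared a slide, so its adjusted p leaves that likeness out. The values are of the brightest probes. Over all 7 arrays, the second probes of Map1b and Dpysl3 had 6 h means above 0 (0.12 and 0.070), and the dimmer probes of Dcx, Mapt and Mapre2 had means below 0. Without slide 1, 2 or 3, 0 of the 10 genes were called at 6 h, where 0% of probes were called in each of these fits. The direction of the means also depended on the slide. Without slide 3, 8 of the 10 means lay above 0, among them those of Dpysl3 (0.28), Mapt (0.13), Mapre2 (0.13) and Map1b (0.040), and the median of the 10 was 0.12. Without slide 2 the median was -0.038, with 3 of the 10 means above 0, and without slide 1 it was -0.18. With the arrays of a slide averaged first (n = 4), 0 were called as well.

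The group means at 6 h lay below those at 12 h, but within slides the size and the direction of the difference varied. The difference of means (6 h minus 12 h) was negative for all 10 genes, from -1.33 for Map1b (95% interval -2.49 to -0.16, adjusted p = 0.353) to -0.15 for Tubb3. Limma called 0 of the 10 in this contrast, where 0.00573% of all probes were called. At an unadjusted p under 0.05 it counted 4 (Map1b, Mapt, Mapre2 and Dcx), beside 14.1% of all probes. Within slides, the median difference over the 10 genes was -1.96 on slide 3 (all 10 negative) and -0.33 on slide 1 (7 negative). It was -0.25 on slide 2 (7 negative) and 0.027 on slide 4 (4 negative). For Map1b the slide 3 difference was -3.61, since its 12 h array there had the highest Map1b ratio of all 31 arrays. With slide as a fixed block 0 of the 10 genes were called. Without slide 4, in a fit with no term for slide, the same 4 genes were called lower (11.5% of probes called). Differences of 6 h from 3 h and from 24 h were called for 0 of the 10 genes, with 0% of probes called in both contrasts and 0 of the 10 at an unadjusted p under 0.05 by limma (4.2% and 3.16% of probes).

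**Figure D3:**
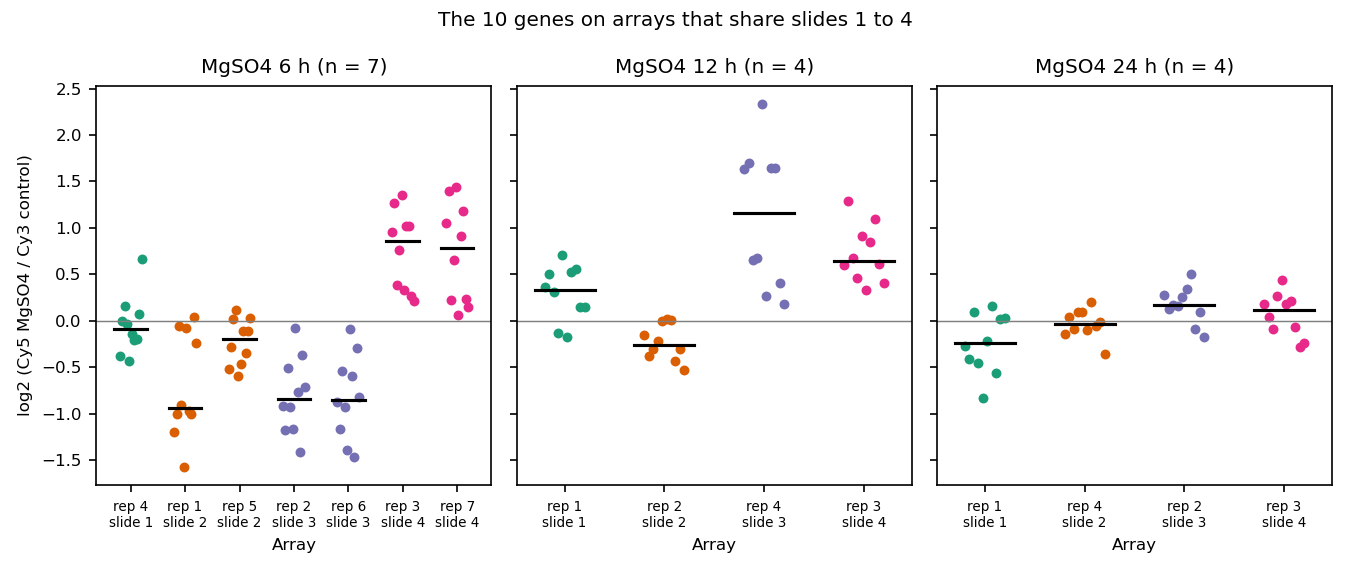
Log2 ratio of MgSO4 (Cy5) to control (Cy3) for the 10 genes (points) on each array of 6, 12 and 24 h, ordered and coloured by slide, with the median of the 10 as a bar. On slide 3 the 6 h medians are -0.85 and the 12 h median is 1.15, whereas on slide 4 the 6 h medians (0.85 and 0.78) and the 12 h median (0.64) lie on the same side of 0.

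Both channels took part in these differences. Single-channel levels are log2 signals minus the 75th percentile of that channel on the array. For Map1b on the 6 h arrays, the control level (Cy3) was 1.20 and 1.07 on slide 4 but 1.90 and 2.15 on slide 3, and the MgSO4 level (Cy5) was 2.54 and 2.51 on slide 4 but 0.76 and 0.77 on slide 3. Over all arrays the Cy3 level of Map1b ran from 0.098 to 4.04. Its control level at 3 h (3.36 to 4.04) lay above that of every later control pool of the MgSO4 groups (0.098 to 2.92), but the 3 h arrays were on slides of their own, so time and slide cannot be told apart there. The Cy3 level of Gap43 covered 1.21 log2 units over the 31 arrays and that of Stmn2 1.23, against 3.94 for Map1b.

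**Figure D4:**
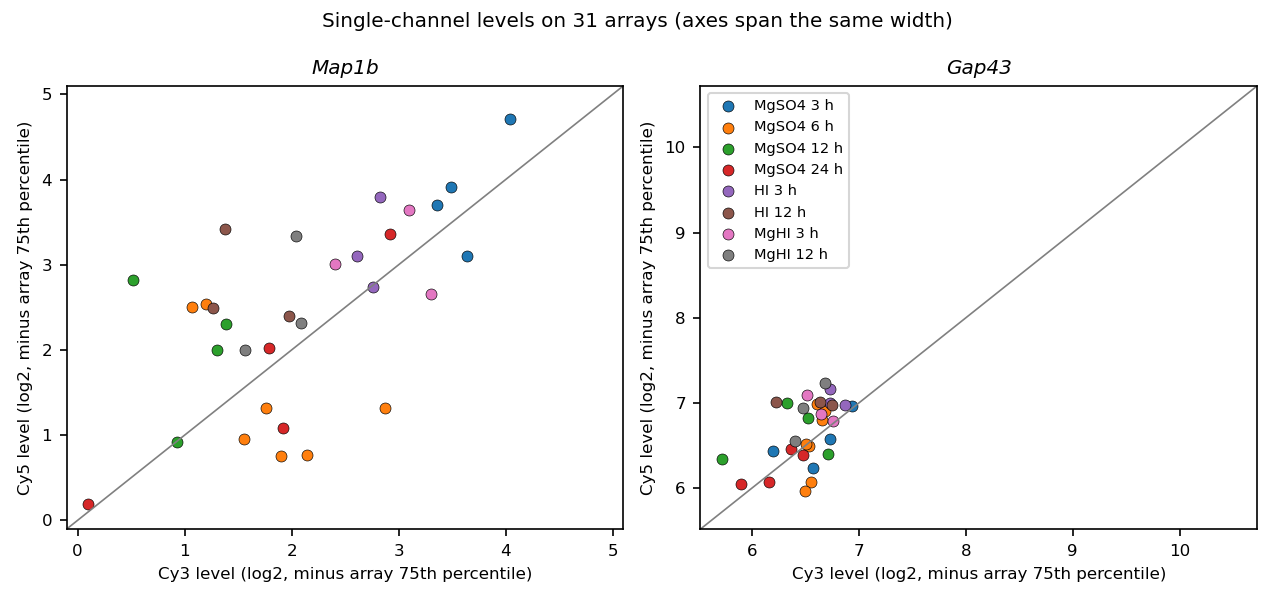
Single-channel levels (log2 signal minus the 75th percentile of the channel on the array) in Cy3 (horizontal) and Cy5 (vertical) of Map1b and Gap43 on 31 arrays, coloured by group, with the line of equal levels. Map1b spreads over 3.94 log2 units in Cy3 and lies on both sides of the line at 6 h, while Gap43 spreads over 1.21.

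Of the marker lists of cell types, that of neurons had the sign of the set on every 6 h array, and others did not. All 12 neuronal markers were well above background on every array, and so were all 9 astrocyte, all 10 oligodendrocyte lineage and all 9 microglial markers. At 6 h the median of the neuronal list was -0.24, -0.41, 0.43, -0.13, -0.09, -0.45 and 0.39 on the 7 arrays, with the sign of the median of the 10 genes on each. The median of the microglial list had the opposite sign on 6 of the 7 arrays, and that of the progenitor list lay below 0 on all 7. The summed signal of the neuronal list, as log2 of Cy5 over Cy3, ran from -0.58 to 0.37 at 6 h, from -0.12 to 0.57 at 12 h and from 0.18 to 0.60 at 12 h after HI. For the oligodendrocyte lineage list it ran from -0.78 to 0.17 at 6 h, for astrocytes from -0.37 to 0.26 and for microglia from -0.22 to 0.40. The summed blood list was at -0.40 and -0.44 on the 6 h arrays of slide 4, where the set was high, and at 0.011 and 0.012 on those of slide 3, where it was low. It ran from -0.44 to -0.054 at 12 h and from -0.59 to -0.32 at 24 h. The choroid plexus list was at 1.71 and 2.09 on the 6 h arrays of slide 4, against -0.69 to 0.25 on the other 5, and ran from -0.51 to 2.59 at 12 h. For the endothelial list the summed ratio ran from -1.77 to 1.35 at 6 h, wider than for neurons, and from -0.54 to 0.21 at 12 h. The part of these lists in the result was not tested. Of the progenitor markers, Cenpf was well above background on 0 of 31 arrays.

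After HI, Map1b had the highest mean among the brightest probes of the set at both times. At 3 h its log2 ratios were -0.04, 0.97 and 0.50 (0.47 ± 0.50, SD, n = 3, adjusted p = 0.152), and at 12 h they were 2.04, 1.23 and 0.42 (1.23 ± 0.81, SD, n = 3, adjusted p = 0.0978). All 3 arrays of 12 h were above 0, and the lowest lay within the range of 3 h. The second Map1b probe had means of 0.13 ± 0.40 at 3 h and 0.71 ± 0.47 at 12 h (SD, n = 3, limma adjusted p = 0.580 and 0.111). At 3 h the second Mapre2 probe, at 0.58 ± 0.11 (SD, n = 3), lay above both Map1b probes. Gap43 was above 0 on all 6 HI arrays, with 0.26, 0.10 and 0.44 at 3 h (adjusted p = 0.0987) and 0.78, 0.38 and 0.23 at 12 h (adjusted p = 0.136). Dcx gave 0.10, 0.43 and 0.35 at 3 h, with the lowest adjusted p of the set at that time (0.0797). Its 12 h ratios of 1.04, 0.42 and -0.06 lay on both sides of 0 on the brightest probe. Of the dimmer Dcx probes, 1 was above 0 on all 3 arrays of 12 h (0.68 ± 0.40, SD, n = 3, limma adjusted p = 0.102). The other lay on both sides of 0 (0.22 ± 0.96, SD, n = 3, limma adjusted p = 0.715).

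Limma called 0 of the 10 genes at 3 h after HI, where 14.3% of probes tested were called, and 0 at 12 h, where 0.0106% were. At an unadjusted p under 0.05 it counted 2 at each time, beside 36.1% and 27.5% of all probes, and the methods' t-test without adjustment counted 0 and 1, beside 24.5% and 17.8%. The 1 gene was Map2, with a mean below 0 on its brightest probe. Its second probe was above 0 on all 3 arrays of each time, with means of 0.22 at 3 h and 0.22 at 12 h (limma adjusted p = 0.0742 and 0.361). The summed signal of the blood markers, as log2 of Cy5 over Cy3, ran from 0.26 to 1.00 at 12 h. That of the choroid plexus list was 0.42, 1.12 and 0.65, and that of the meninges list ran from -0.0029 to 0.73. The part of these lists in the ratios was not tested. By their brightest probes, Mapt, Dpysl3, Mapre2 and Map1a were higher on replicate 1 of 12 h (1.03, 1.24, 1.11 and 1.05). They were lower on replicate 2 (0.57, 0.61, 0.31 and 0.21) and below 0 on replicate 3 (-0.20, -0.19, -0.40 and -0.24). The second probes of Mapre2 (0.70 to 1.08) and Dpysl3 (0.34 to 0.59) were above 0 on all 3 arrays of 12 h (limma adjusted p = 0.0739 and 0.112). The second Map1a probe and both dimmer Mapt probes each had 1 array below 0. Without replicate 3, 6 of the 10 genes were called higher at 12 h (Map1b, Mapt, Mapre2, Dcx, Dpysl3 and Gap43), where 23% of probes were called. Map2 stayed between -0.20 and 0.010 over all 6 HI arrays. Its mean was -0.046 ± 0.049 at 3 h and -0.15 ± 0.05 at 12 h (SD, n = 3, adjusted p = 0.620 and 0.424). Tubb3 had means of -0.099 ± 0.134 and -0.20 ± 0.19, and Stmn2 of 0.042 ± 0.090 and 0.0077 ± 0.330 (SD, n = 3).

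The difference between 12 h and 3 h after HI was called for 0 of the 10 genes by limma, where 0.0378% of probes were called, and for 0 at an unadjusted p under 0.05 (17.7% of probes). It was largest for Map1b, at 0.75 (95% interval -0.25 to 1.76, adjusted p = 0.393). Both times shared slide 8, where the median difference over the 10 genes between single arrays was 0.69, from replicate 1 of 12 h and replicate 3 of 3 h.

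On the MgHI arrays, Map1a was the only gene of the set whose brightest probe was called, and only at 3 h. At 3 h it was higher in Cy5 on all 3 arrays (0.37, 0.58 and 0.65), with a mean of 0.53 ± 0.14 (SD, n = 3) and an adjusted p of 0.0329. That is 1 of the 10 genes, where 11.6% of all probes tested were called, so the share of the set is near the background. At 12 h its ratios were 1.07, 0.62 and 0.25, again higher in Cy5 on 3 of 3 arrays (0.65 ± 0.41, SD, n = 3, adjusted p = 0.109). The second Map1a probe did not follow at 3 h, with -0.52, -0.30 and 0.10 (-0.24 ± 0.31, SD, n = 3, adjusted p = 0.315). At 12 h it did not follow either, running from -0.27 to 0.32 (0.036 ± 0.292, SD, n = 3, adjusted p = 0.892). The call was lost with the mean of both probes, without replicate 2, with no filter on dim probes, in a fit over all 31 arrays and under a fold change of 1.5.

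Stmn2 had more signal in Cy5 on all 6 MgHI arrays, at 0.23, 0.24 and 0.76 at 3 h (adjusted p = 0.118) and 0.58, 0.35 and 0.32 at 12 h (adjusted p = 0.102). Gap43 ran from 0.02 to 0.57 over the same 6 arrays. Map1b gave -0.66, 0.53 and 0.59 at 3 h and 1.29, 0.21 and 0.43 at 12 h. Its second probe was below 0 on all 3 arrays of 3 h, with a mean of -0.78 (limma adjusted p = 0.0746), and had a mean of -0.35 at 12 h (adjusted p = 0.280). Map2, Mapt, Mapre2, Tubb3 and Dpysl3 lay on both sides of 0 at both times, and Dcx did so at 3 h. Limma called 0 of the 10 at 12 h, where 0% of probes were called, and counted 4 at an unadjusted p under 0.05 (26.6% of probes) against 1 by the methods' t-test without adjustment (15.1% of probes). At 3 h these counts were 2 (30.2% of probes) and 1 (20% of probes). The change from 3 h to 12 h was called for 0 of the 10 genes (0% of probes called, and 0 genes at an unadjusted p under 0.05 by limma, beside 4.09% of probes). Without replicate 1 of 3 h, the brightest probes of Map1b and Stmn2 were called along with that of Map1a, where 21.7% of probes were called.

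Several genes have more than 1 probe, and these did not always follow each other. The 3 Mapt probes were closest, with root mean square differences from the brightest probe of 0.15 and 0.26 over the arrays. The second Dpysl3 probe, designed on another RefSeq transcript of the gene, had an SD of 0.31 where the brightest had 0.73, and shared its sign on 20 of 31 arrays. The second Map1b probe had an SD of 0.75 and shared the sign of the brightest on 23 of 31. For Map2 the second probe had an SD of 0.15 and shared the sign of its brightest on 14 of 31, the fewest of the set. A second Mapre2 probe was called higher 3 h after HI (0.58 ± 0.11, SD, n = 3, adjusted p = 0.0206), where the brightest probe measured -0.033 ± 0.076. A dimmer Dcx probe was called higher in Cy5 on the MgHI arrays of 3 h (0.78 ± 0.12, SD, n = 3, adjusted p = 0.0135), where the brightest measured 0.037 ± 0.509. Which transcripts each probe detects was not examined.

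The other genes of these pathways were taken as 8 lists with 120 genes, of which 116 have a probe and 113 to 115 were tested. After MgSO4 alone, limma called 0 of them at every time measured. Their median was -0.081 at 6 h, with 71 of 115 means below 0, and 0.29 at 12 h, with 99 of 115 above 0. Kif21b, a kinesin, had the largest 12 h mean among the motor genes (1.14 ± 0.91, SD, n = 4, adjusted p = 0.304), and Map6 among the microtubule-binding genes (0.86 ± 0.79, SD, n = 4, adjusted p = 0.304).

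At 3 h after HI, 8 of 115 list genes were higher and 4 lower, against 6.33% and 7.96% of all probes tested. Tubb6 rose most among the tubulins (1.02 ± 0.20, SD, n = 3, adjusted p = 0.0134), followed by Tuba1c (0.55 ± 0.16). Dpysl5, another collapsin response mediator protein, rose by 0.76 ± 0.17, and Epha5, an ephrin receptor of axon guidance, by 0.77 ± 0.05 (adjusted p = 0.0177 and 0.0124). Ina, an intermediate filament protein of neurons, and Kif1b, a kinesin, rose by 0.47 ± 0.12 and 0.44 ± 0.14. The genes that fell were Map7 (-0.38 ± 0.06), Cdk5 (-0.32 ± 0.09), Pfn2 (-0.31 ± 0.09) and Nde1 (-0.30 ± 0.05). At 12 h after HI 0 list genes were called, with a median of 0.23.

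On the MgHI arrays of 3 h, 16 of 115 list genes were higher in Cy5 and 0 lower, against 8.91% and 2.65% of all probes tested. L1cam, an adhesion molecule of axons, led the growth cone list (1.13 ± 0.15, SD, n = 3, adjusted p = 0.00815). Tuba1b led the tubulins (1.09 ± 0.08, adjusted p = 0.00771), of which 4 of 11 were called. Kif3b and Klc1, parts of kinesin motors, were higher by 0.95 ± 0.06 and 0.83 ± 0.20. Basp1, a growth cone membrane protein like Gap43, was higher by 0.69 ± 0.07, and Stmn1 by 0.64 ± 0.13, while Gap43 (0.27 ± 0.28) and Stmn2 (0.41 ± 0.30) were not called. Tubulin genes are close copies, and the probes may not tell them apart.

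By their values over the 31 arrays, the genes nearest to Map1b among 13209 were Nav1, Adcy1 and Kif21b, with root mean square differences of 0.22, 0.24 and 0.25 against a median of 1.00. Those nearest to Dpysl3 were Atp9a, Trim32 and Map6 (0.21, 0.23 and 0.23), and those nearest to Mapt were Atp9a, Cpne5 and St3gal1 (0.20, 0.20 and 0.21). The arrays share slides and pools of each time, so this likeness is a description.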

How the data were processed

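RNA pools of 6 hemispheres were hybridised to 31 Agilent 4x44K 2-colour arrays on 9 slides scanned on 7 days. The deposited scanner files, made by the authors with Agilent Feature Extraction 10.5.1.1 (submitters' processing notes), hold background-subtracted, dye-normalised intensity in Cy3 and Cy5. The log10 ratio deposited by the authors in the series table equalled the ratio column on the 30 arrays that have one. Ratios were recomputed here as log2 of Cy5 over Cy3. Flagged spots were removed, spots of 1 probe averaged, and probes kept that were well above background in either channel on 66.7% of a group's arrays. RefSeq accessions gave 27427 probes 1 symbol (69.6% of 39429). R 4.3.3 and limma 3.58.1 tested each group's mean against 0, 6 h against the other times of MgSO4, and 12 h against 3 h after HI and MgHI. Genes were called where limma's p, adjusted by Benjamini-Hochberg over every probe in the fit, was under 0.05, without a fold limit. The test steps were tested on simulated data with independent arrays and shifts larger than any group mean of the set. Recovery of smaller shifts, or with arrays that share a slide, was not examined.

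The members and lists were chosen with earlier results of these data known. Named were all 10 members, by list the called genes with the largest means or, without calls, the largest means, and for the 3 widest members the nearest genes by root mean square difference. Samples were grouped by title. The number of arrays limits the precision. Same-numbered arrays deviated together in some pairs but not in all pairs of any contrast, so replicate numbers were not used as pairs. Whether the arrays of a group came from separate pools rests on the labels, and p-values measure the spread between arrays only.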

Additional observations from a re-analysis of the deposited data

Results flagged for a closer look

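Of 124 sets of values over 4 to 7 arrays, 12 held an array far from the others by Dixon's test, for which chance gives about 1 in 20. Replicate 1 of MgSO4 at 3 h lay below the other 3 arrays in the log2 ratio of Mapt (-0.88), Mapre2 (-0.78), Dpysl3 (-0.75), Dcx (-0.66) and Tubb3 (-0.53), and in the median of the 10 genes (-0.53). Replicate 1 of 24 h lay below the others for Mapt (-0.56) and Dpysl3 (-0.41), and replicate 2 of 24 h lay above them for Mapre2 (0.50). In single channels, Dcx in Cy3 was at -2.07 on replicate 3 of 3 h, with a ratio of 0.14 there. Stmn2 in Cy5 was at 7.18 on replicate 3 of 24 h, and Tubb3 in Cy5 at 6.02 on replicate 1 of 24 h.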

How the results depend on the processing

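Of 209 counts of called genes of the set under alternative settings, 191 equalled the main count or stayed within 1.5 times of it. Of 2110 mean log2 ratios of single genes, 167 had the opposite sign to the main value, 24 of them at 6 h of MgSO4, and none of these main values had been called. The 6 h median of the 10 genes ran from -0.53 (without slide 4) to 0.12 (without slide 3), and without replicate 3 of the MgHI arrays of 3 h the mean of Dpysl3 went from 0.051 to -0.26. Leaving out slide 4, an alternative chosen after seeing the data and fitted with no term for slide, gave 5 called genes at 6 h and 4 for 6 h minus 12 h. Normexp background correction with loess gave 4 at 3 h and 1 at 12 h after HI, and 2 at 3 h and 1 at 12 h on the MgHI arrays. The mean of all probes gave 1 at 3 h after HI (Mapre2) and 0 on the MgHI arrays of 3 h. There, no filter, 1 fit over all arrays, the methods' t-test after Benjamini-Hochberg and a fold change of 1.5 each gave 0. The methods' t-test without adjustment gave 1 at 24 h of MgSO4, 1 at 12 h after HI and 1 on the MgHI arrays of 12 h. Leaving out each replicate gave 0 to 6 called genes at 12 h after HI and 0 to 3 on the MgHI arrays of 3 h. The cause was not tested. Of all probes, the main counts were 0, 5, 0 and 1 after 3, 6, 12 and 24 h of MgSO4, 2705 and 2 after HI (3 and 12 h), and 2228 and 0 on the MgHI arrays. In that order, 1 fit over all arrays called 110, 2113, 699, 183, 879, 2594, 1989 and 1689, normexp with loess 65, 1, 36, 9, 4521, 755, 2356 and 855, and the methods' t-test without adjustment 1767, 2393, 2020, 1879, 4635, 3379, 3855 and 2915. At 3 h after HI, no filter called 33, a fold change of 1.5 called 719 and the methods' t-test after adjustment 1. On the MgHI arrays of 3 h these were 753, 1466 and 0, and at 6 h of MgSO4 the adjusted t-test called 17. Slide as a random block, or arrays of a slide averaged, called 0 at 6 h. Leaving out replicates gave 287 to 878 at 3 h and 18 to 4211 at 12 h after HI, 1130 to 4092 at 3 h and 0 to 815 at 12 h on the MgHI arrays, and 0 to 14 at 6 h of MgSO4. For 12 h minus 3 h after HI, 7 calls became 55 with normexp, 0 with the replicate block and 0 to 616 on leaving out replicates, the highest without replicate 3 of 12 h. Same-numbered arrays had deviations correlated at -0.28 to 0.60 (6 h and 3 h), 0.00033 to 0.69 (6 h and 12 h) and -0.16 to 0.26 (6 h and 24 h), and negative r in HI. With the replicate number as a block, 0 of the 10 genes were called in every contrast. Slide as a random block could not be fitted for the HI and MgHI groups. Signal over background was not limiting for the brightest probes of the set.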
